A study of Mus musculus with 6 samples.

Results

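The transcripts described are those of 9 Toll-like receptors, Tlr1, Tlr2, Tlr4, Tlr5, Tlr6, Tlr7, Tlr8, Tlr9 and Tlr13, and of the co-receptor Cd14, in alveolar macrophages (AMs) of CD44+/+ and CD44-/- mice. These 10 genes were taken by their gene identifier from the 24341 genes of the deposited expression table, without use of their values. Cells were washed from the airspaces of female C57BL/6 mice of 6 to 10 weeks by bronchoalveolar lavage (BAL), and red cells were lysed. RNA was sequenced, with no sort described, in 3 pools of untreated mice for each genotype. The paper describes the BAL cells of naive mice as nearly all AMs. The CD44-/- genotype is a property of the whole mouse and not of AMs alone, and the mice of both genotypes were naive. The comparison asks whether transcripts of these microbial sensors differed between AMs with and without CD44 at steady state.

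Toll-like receptors are membrane proteins that recognise microbial molecules through a leucine-rich ectodomain and signal through a cytoplasmic TIR domain. One set sits at the cell surface and binds lipoproteins, lipopolysaccharide (LPS) and flagellin, and the other sits in endosomes and binds nucleic acids after delivery by the chaperone UNC93B1. Most signal through the adaptor MyD88 to NF-kB, and CD14 hands LPS to the complex of TLR4 and MD-2 and lipopeptides to TLR2. AMs are the resident phagocytes of the airspace and are among the first cells to meet inhaled microbes.

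The samples carried the markers of AMs, in that all 9 AM markers (among them Siglecf, Itgax, Marco, Chil3, Mrc1 and Pparg) had a mean of at least 0.5 FPKM and summed in each sample to between 16264 and 20484 FPKM. FPKM, fragments counted relative to transcript length and sequencing depth, corrects for length, so levels can be set side by side between genes. Cd44, the deleted gene, was at 527 to 540 FPKM with CD44 and at 51.4 to 54.7 FPKM without. Absolute depth is unknown, and ratios of values under 0.05 FPKM put the depth of the samples at 0.814 to 1.05 relative to CD44+/+ replicate 1. Of other cells that carry Toll-like receptors, the markers of B cells summed to at most 0.588 FPKM and those of dendritic cells to at most 2.82 FPKM in any sample. Of the monocyte markers 2 of 6 had a mean of at least 0.5 FPKM, and the list summed to 6.76 to 8.05 FPKM in CD44+/+ and 6.10 to 8.44 FPKM in CD44-/- samples. Neutrophil markers (5 of 6 above that mean) summed to 33.7, 80.1 and 66.4 FPKM in the CD44+/+ samples and to 46.3, 53.1 and 50.4 FPKM in the CD44-/- samples. Airway secretory cell markers summed to 728, 1204 and 824 FPKM and to 993, 659 and 579 FPKM. CD44+/+ replicate 2 thus had the highest sum for both lists. Markers of alveolar type 2 cells summed to 34.7 to 45.2 FPKM in CD44+/+ and 42.3 to 106 FPKM in CD44-/- samples, and those of T cells to at most 2.18 FPKM in any sample. Of erythroid genes, the globin entry Hbb-b1,Hbb-bs had 9.04, 85.7 and 20.2 FPKM in CD44+/+ and 12.5, 226 and 10.4 FPKM in CD44-/- samples, so that red cell transcripts were present in every sample and highest in replicate 2 of each genotype. In bulk RNA, fewer cells of a type and less RNA per cell cannot be told apart.

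The genes lie on 7 chromosomes, and the X chromosome holds 3 of them. In the GENCODE annotation of the mouse genome GRCm38 (mm10), Tlr1 (chromosome 5 from 64924679 to 64933563) and Tlr6 (64952031 to 64960097) are neighbours with 18467 bases and no gene between them. Tlr7 (X from 167304929 to 167330558) and Tlr8 (X from 167242696 to 167264329) are likewise neighbours, 40599 bases apart with no gene between them, and Tlr13 lies elsewhere on X from 106143204 to 106160493. Tlr2 spans 83836272 to 83841767 of chromosome 3, Tlr4 66827584 to 66930284 of chromosome 4, Tlr5 182954788 to 182976044 of chromosome 1 and Tlr9 106222598 to 106226883 of chromosome 9. None of the 10 genes (0) overlaps another annotated gene on either strand, so in this annotation no antisense or host gene shares their fragments.

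Sequence shared between receptors does bear on the counting of 1 pair. Of the 2347 windows of 42 bases in the Tlr1 coding sequence, the length of a read, 509 (21.7%) occur unchanged in Tlr6, and these are 21.4% of the 2380 windows of Tlr6. Between the coding sequences of the 9 receptors, no other pair shared a window (0). The longest run common to Tlr1 and Tlr6 has 229 bases within a single coding exon of each, at chr5:64925537-64925765 in Tlr1 and chr5:64953828-64954056 in Tlr6, both on the minus strand. It is shown because a read pair wholly inside it cannot be assigned to either gene by its sequence. The low Tlr1 values given further on are therefore uncertain, and the Tlr6 level can be affected too. It is printed 5′ to 3′ with no base in capitals, since all of it is identical.
Tlr1 and Tlr6: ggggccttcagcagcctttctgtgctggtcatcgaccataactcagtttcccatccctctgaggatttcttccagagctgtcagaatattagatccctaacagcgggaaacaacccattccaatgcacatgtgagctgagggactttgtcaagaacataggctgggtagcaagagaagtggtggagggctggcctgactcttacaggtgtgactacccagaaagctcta
For comparison, the longest coding run that the neighbours Tlr7 and Tlr8 share has 13 bases, tggatgtgattat.

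Promoter sequences from RefSeq (GRCm38.p6) are described for 7 of the 10 genes, all of them receptors. They lie in 9 windows that run from 250 bases before to 20 bases after a transcription start. Tlr4 and Tlr7 had no entry, and the co-receptor gene was left out, so the counts of matches below do not cover it. The windows of the 2 most abundant receptors, Tlr2 and Tlr8, are shown because these genes share a cell type and a high level but not a base composition: the Tlr2 window (chr3:83841589-83841858, minus strand) has a GC content of 62.6% and the Tlr8 window (chrX:167264310-167264579, minus strand) of 31.5%, against a median of 52.6% over 32851 windows of all genes. Capitals mark matches to letters of NF-kB sites (GGGNNNNNCC) or of sites of PU.1, a myeloid transcription factor (GAGGAA), on either strand.
Tlr2: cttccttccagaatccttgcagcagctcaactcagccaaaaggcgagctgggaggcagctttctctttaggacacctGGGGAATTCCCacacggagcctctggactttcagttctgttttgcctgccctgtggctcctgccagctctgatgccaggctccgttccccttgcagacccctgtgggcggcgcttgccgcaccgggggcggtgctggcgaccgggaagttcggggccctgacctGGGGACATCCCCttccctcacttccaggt
Tlr8: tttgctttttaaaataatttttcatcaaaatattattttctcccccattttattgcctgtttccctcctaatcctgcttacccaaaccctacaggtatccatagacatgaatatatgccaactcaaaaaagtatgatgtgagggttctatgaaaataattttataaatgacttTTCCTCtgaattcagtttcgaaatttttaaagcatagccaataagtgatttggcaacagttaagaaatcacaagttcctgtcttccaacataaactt
The Tlr2 window holds 5 overlapping matches to the NF-kB letters in 2 places and none to GAGGAA, and the Tlr8 window holds 1 match to GAGGAA and none to the NF-kB letters. Over the 9 windows of these genes, 3 held the NF-kB letters and 4 held GAGGAA, while 47.9% and 25.1% of all windows did. A match is a description of letters and not of a bound site.

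The 10 transcripts covered more than 3 orders of magnitude and kept nearly the same order in every sample, with Tlr2 at the top and Tlr1 at the bottom. By their means over the 6 samples the order was Tlr2 (334 FPKM), Tlr8 (119.5 FPKM), Tlr7 (67.9 FPKM), Cd14 (64.0 FPKM), Tlr4 (56.2 FPKM), Tlr13 (34.3 FPKM), Tlr5 (19.0 FPKM), Tlr6 (7.14 FPKM), Tlr9 (0.369 FPKM) and Tlr1 (0.0716 FPKM). Among all genes Tlr2 ranked 213, Tlr8 653 and Tlr7 1230 by mean FPKM, while Tlr9 ranked 11083 and Tlr1 12762. Of the 9 steps between neighbours in this order, 7 held in all 6 samples without overlap of their ranges. The exceptions were Tlr7 over Cd14 and Cd14 over Tlr4, which each held in 5 of 6 samples and whose ranges overlapped. Cd14 thus could not be ranked against Tlr7 or Tlr4 beyond the spread, while Tlr7 was 1.11 to 1.38 times as high as Tlr4 in all 6 samples.

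**Figure D1:**
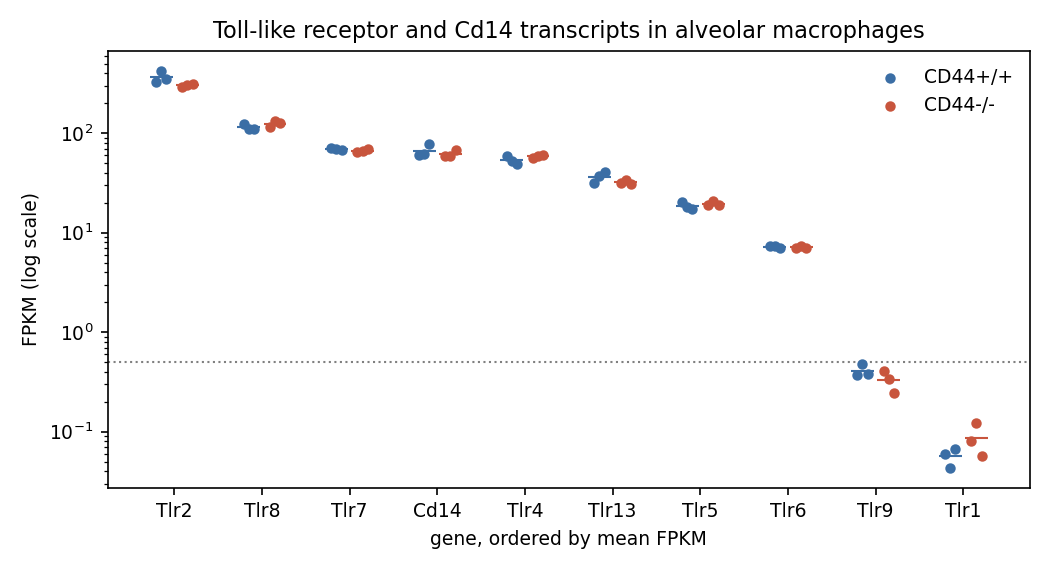
FPKM (log axis) of the 9 Toll-like receptors and Cd14 in each of the 6 samples, ordered by mean, with CD44+/+ samples in blue and CD44-/- samples in red. Short lines mark the mean of each genotype and the dotted line the 0.5 FPKM needed for a test. Tlr2 sits between 290 and 425 FPKM, and Tlr9 and Tlr1 lie under the dotted line in both genotypes.

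Summed over the 9 receptors, FPKM was 639, 721 and 641 in CD44+/+ and 584, 622 and 626 in CD44-/- samples. Tlr2 alone made up 48.7% to 58.9% of this sum and Tlr8 15.4% to 21.1%. The 5 surface receptors together had 446 ± 50.4 FPKM (n = 3, SD) in CD44+/+ and 388 ± 13.8 FPKM (n = 3, SD) in CD44-/- AMs. For the 4 endosomal receptors the sum was 221 ± 5.95 FPKM (n = 3, SD) with CD44 and 223 ± 10.2 FPKM (n = 3, SD) without. These sums are given as levels only and were not tested.

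Expression was compared between genotypes with limma on log2(FPKM + 0.1) for the 10800 genes whose mean reached 0.5 FPKM, two-sided, and p was adjusted over all of them by Benjamini-Hochberg. Tlr1 and Tlr9 did not reach this level in the mean of the 6 samples, so 8 of the 10 genes were tested. None of these 8 (0) had an adjusted p under 0.05 in limma, the only tool run, where 12 of all genes tested (0.111%) did. Of the 8, Tlr2 (1 gene) had an unadjusted p under 0.05, against 7.69% of all genes tested. This count was 4 without CD44+/+ replicate 1, where 1354 of 10805 genes had such a p, and 0 without CD44-/- replicate 1 (919 of 10791 genes). It was also 0 with no filter on low values, where Tlr2 had an interval of -0.57 to 0.03. In 1 of the 8, again Tlr2, no CD44-/- value fell within the CD44+/+ range or the reverse, against 11.6% of all genes tested (4.88% with CD44-/- lower and 6.75% with CD44-/- higher), so neither count with all samples stood out from the background. Log2 fold changes of CD44-/- over CD44+/+ lay between -0.27 and 0.14 with a median of -0.03, beside a median of 0.01 over all genes tested, and 5 of the 8 were below 0, against 44.2% of all genes tested. The 95% intervals, which are for each gene alone and not adjusted, lay between -0.48 and 0.30 on the log2 scale for all 8. None of the 8 (0) reached a change of 0.5 in either direction, which 2.55% of all genes tested did. The smallest p that the exact permutation test of 3 samples against 3 allows is 0.1 (two-sided).

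**Figure D2:**
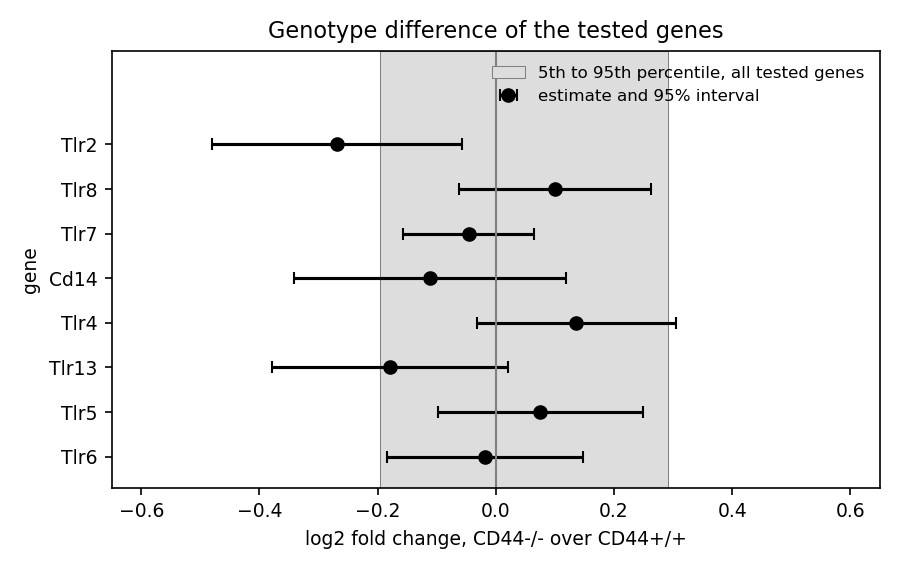
Log2 fold change of CD44-/- over CD44+/+ AMs on the log2(FPKM + 0.1) scale for the 8 tested genes, ordered by mean FPKM, with 95% intervals from limma. The grey band spans the 5th to 95th percentile of all genes tested, from -0.20 to 0.29, and the interval of Tlr2 alone does not include 0, which it does with no filter on low values (-0.57 to 0.03).

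Tlr2, the receptor for bacterial lipoproteins, which pairs with TLR1 or TLR6, had 324, 425 and 350 FPKM in CD44+/+ and 290, 303 and 314 FPKM in CD44-/- samples. Every CD44-/- sample was thus below every CD44+/+ sample, but the lowest CD44+/+ and the highest CD44-/- sample were close. The mean was 366 ± 52.4 FPKM (n = 3, SD) with CD44 and 302 ± 12.0 FPKM (n = 3, SD) without, with a log2 fold change of -0.27 (standard error, SE, 0.09, 95% interval -0.48 to -0.06, adjusted p = 0.509). The difference did not pass the test, and its size depended on CD44+/+ replicate 2, the highest sample: without it the log2 fold change was -0.16 (adjusted p = 0.959). This replicate also had the highest sums of neutrophil and airway secretory markers, and the part of those cells in the Tlr2 value was not tested. Of the neutrophil markers, S100a8 (45.0 FPKM) and S100a9 (18.9 FPKM) were highest in this replicate, while Cxcr2 (2.62 FPKM) was lowest in it. Csf3r, Retnlg and Mmp9 were highest in other samples.

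Tlr6, the partner of TLR2 for diacylated lipopeptides, was among the steadiest of the set, with a range of 1.07-fold over the 6 samples. It had 7.28, 7.34 and 6.94 FPKM in CD44+/+ and 6.93, 7.40 and 6.96 FPKM in CD44-/- samples. The groups overlapped almost fully, with a log2 fold change of -0.02 (SE 0.07, 95% interval -0.18 to 0.15, adjusted p = 0.989). Tlr2 was 40.9 to 57.9 times as high as Tlr6 in FPKM within a sample, where the bases that Tlr6 shares with Tlr1 can affect its level. Tlr1, the partner for triacylated lipopeptides, had 0.0597, 0.0432 and 0.0674 FPKM in CD44+/+ and 0.0807, 0.122 and 0.0565 FPKM in CD44-/- samples. These values were under the limit for a test in both genotypes and overlapped, and they carry the doubt from the bases shared with Tlr6.

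Tlr4, the LPS receptor, had 59.3, 52.9 and 48.6 FPKM in CD44+/+ samples and 56.7, 59.5 and 60.0 FPKM in CD44-/- samples. CD44+/+ replicates 2 and 3 were below all CD44-/- samples and replicate 1 was not, so the groups overlapped, with a log2 fold change of 0.14 (SE 0.07, 95% interval -0.03 to 0.30, adjusted p = 0.765). Cd14, which presents LPS to TLR4, had 60.7, 61.5 and 77.6 FPKM in CD44+/+ and 58.5, 58.5 and 67.2 FPKM in CD44-/- samples. In each genotype replicate 3 was the highest, and both groups overlapped. For Cd14 the log2 fold change was -0.11 (SE 0.10, 95% interval -0.34 to 0.12, adjusted p = 0.923), and without CD44+/+ replicate 3 it was 0.0040, with the high CD44-/- replicate 3 kept. Within the same-numbered pairs, Cd14 was lower in the CD44-/- sample in 3 of 3, as was Tlr2. How many of all genes did the same was not counted. Tlr5, the flagellin receptor, had 20.2, 18.2 and 17.1 FPKM in CD44+/+ and 19.0, 20.6 and 18.8 FPKM in CD44-/- samples. Its groups overlapped as well, with a log2 fold change of 0.08 (SE 0.08, 95% interval -0.10 to 0.25, adjusted p = 0.936).

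Among the endosomal receptors, Tlr8 was the most abundant, followed by Tlr7, a sensor of single-stranded RNA. Tlr8 had 125, 111 and 110.0 FPKM in CD44+/+ samples and 114, 131 and 126 FPKM in CD44-/- samples, with overlap. Its log2 fold change was 0.10 (SE 0.07, 95% interval -0.06 to 0.26, adjusted p = 0.856). Tlr7 had 70.9, 69.1 and 67.1 FPKM in CD44+/+ and 65.3, 66.2 and 69.0 FPKM in CD44-/- samples. Its 6 values spanned a range of only 1.09-fold, with a log2 fold change of -0.05 (SE 0.05, 95% interval -0.16 to 0.06, adjusted p = 0.942). The ratio of Tlr8 to its neighbour Tlr7 was 1.61 to 1.98 over the 6 samples.

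Tlr13, a receptor for bacterial ribosomal RNA that mice have and humans lack, had 31.9, 37.3 and 40.4 FPKM in CD44+/+ and 31.9, 33.8 and 30.7 FPKM in CD44-/- samples. CD44+/+ replicate 1 lay within the CD44-/- range, and the other CD44+/+ samples were above it. The log2 fold change was -0.18 (SE 0.09, 95% interval -0.38 to 0.02, adjusted p = 0.697). Tlr9, the receptor for unmethylated CpG DNA, had 0.367, 0.483 and 0.378 FPKM in CD44+/+ and 0.403, 0.339 and 0.244 FPKM in CD44-/- samples, under the limit for a test. The mean of Tlr9 was 0.409 ± 0.064 FPKM (n = 3, SD) with CD44 and 0.329 ± 0.080 FPKM (n = 3, SD) without, with overlap (p = 0.3, exact permutation test, two-sided).

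Seen sample by sample, no library was high or low for all 8 genes. The values that stood farthest from the mean of their gene were Tlr2 in CD44+/+ replicate 2 (0.36 on the log2 scale) and Cd14 and Tlr13 in CD44+/+ replicate 3 (0.29 and 0.24). In the same CD44+/+ replicate 3, Tlr4 and Tlr5 were at -0.20 and -0.15. The median deviation of the 8 genes stayed between -0.06 and 0.04 in each sample.

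**Figure D3:**
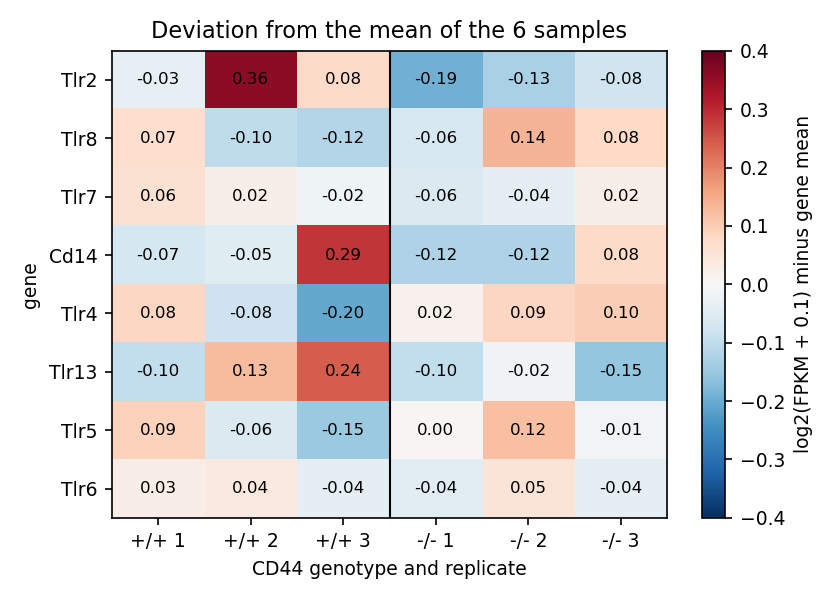
Deviation of each tested gene from its own mean over the 6 samples, as log2(FPKM + 0.1), with samples in columns (CD44+/+ left, CD44-/- right of the line) and red for higher values. The strongest red fields are Tlr2 in CD44+/+ replicate 2 (0.36) and Cd14 in CD44+/+ replicate 3 (0.29), and no column is of a single colour.

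Likeness of pattern was described by Pearson's r over the 6 samples on the log2(FPKM + 0.1) scale. The points are the same 6 libraries for every gene and share their depth and genotype, so r is given without a test. Tlr4 was most like Tlr5 (r = 0.88) and least like Tlr13 (r = -0.93), and Tlr8 was most like Tlr4 (r = 0.87). Tlr2 and Tlr13 were most like each other (r = 0.66). The nearest members were farther for the others, with r = 0.59 for Cd14 and Tlr13, 0.58 for Tlr6 and Tlr5, and 0.43 for Tlr7 and Tlr2. Outside the set, Cd14 was most like the fatty acid desaturase gene Fads1 (r = 0.99) and the sirtuin gene Sirt4 (r = 0.99). Tlr2 was most like Arf1 (r = 0.98), which encodes a small GTPase of membrane traffic, and Echs1 (r = 0.98), an enzyme gene of fatty acid oxidation. Tlr8 was most like the integrin gene Itgad (r = 0.99) and Fam83d (r = 0.99). Of the 10800 genes, 30, 71 and 133 outside the set had r over 0.9 with Cd14, Tlr2 and Tlr8.

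A list of 53 other genes of the Toll-like receptor pathway, ordered by role, was read in the same comparison, and 49 of them were tested. None of the 49 (0) had an adjusted p under 0.05 in limma in either direction, against 0.111% of all genes tested. Of the 49, 6 had an unadjusted p under 0.05 (12.2%, against 7.69%), and 7 (14.3%, against 11.6%) had genotypes that did not overlap, 4 of them higher in CD44-/- AMs (against 6.75%) and 3 lower (against 4.88%). The median log2 fold change was -0.03, beside 0.01 over all genes tested, and 30 of the 49 were below 0, against 44.2% of all genes tested. The count of 6 went to 8 without CD44+/+ replicate 1 and to 2 without CD44+/+ replicate 2, while that of all genes went from 831 to 1354 and 548. It was 3 without each of the CD44-/- replicates 1, 2 and 3, where the counts of all genes were 919, 556 and 567. Without CD44+/+ replicate 1 the count of pathway genes past an adjusted p of 0.05 was 1, Nfkbia, with an adjusted p of 0.0485, where 36 of the 10805 genes tested passed.

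Of the remaining Toll-like receptors, Tlr3, the receptor for double-stranded RNA, had 4.17, 3.48 and 4.02 FPKM in CD44+/+ and 4.50, 4.19 and 3.97 FPKM in CD44-/- samples (log2 fold change 0.12, adjusted p = 0.923). Tlr11 had at most 0.236 FPKM in any sample, and Tlr12 was listed at 0 in 4 of the 6 samples. Tlr3 was thus the only one of these that reached the level for a test.

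Of the 10 co-receptor and chaperone genes 9 were tested. Ly96, which encodes the MD-2 protein that binds LPS with TLR4, had 13.7, 13.6 and 15.2 FPKM in CD44+/+ and 16.2, 15.6 and 15.7 FPKM in CD44-/- samples. All CD44-/- samples were above all CD44+/+ samples, without passing the test (log2 fold change 0.16, adjusted p = 0.633). The most abundant of this group were Hsp90b1, the endoplasmic reticulum chaperone gp96 (403 to 441 FPKM, log2 fold change -0.03), and Slc15a3, an endolysosomal peptide transporter (203 to 221 FPKM, log2 fold change -0.03). Ly86, the partner of CD180, had a log2 fold change of 0.10 (adjusted p = 0.838).

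The proteases that cleave endosomal receptors were at high levels. Ctss, the gene of cathepsin S, had 3512, 3365 and 3391 FPKM in CD44+/+ and 4356, 3626 and 4021 FPKM in CD44-/- samples, without overlap. Its log2 fold change was 0.22 (SE 0.07, adjusted p = 0.499), and 0.13 after quantile normalization. Ctsk, the gene of cathepsin K, had 387, 412 and 437 FPKM and 275, 415 and 327 FPKM, with overlap through CD44-/- replicate 2 (log2 fold change -0.30, adjusted p = 0.645). The Ctsk value was -0.16 without CD44-/- replicate 1 and -0.46 without CD44-/- replicate 2. Ctsb, the gene of cathepsin B, had 394 to 445 FPKM and a log2 fold change of 0.02.

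Of the adaptors, Myd88, the common adaptor, had 94.3 ± 5.26 FPKM (n = 3, SD) in CD44+/+ and 89.0 ± 1.06 FPKM (n = 3, SD) in CD44-/- AMs, with overlap (log2 fold change -0.08, adjusted p = 0.835). Pik3ap1, which encodes BCAP, an adaptor that links receptors to phosphoinositide 3-kinase, had 380.0, 384 and 380.0 FPKM and 359, 339 and 343 FPKM. Its groups did not overlap, and the log2 fold change of -0.14 did not pass the test (SE 0.04, adjusted p = 0.484). Ticam2, which encodes TRAM, the bridge from TLR4 to TRIF, had 27.4, 27.0 and 26.0 FPKM and 30.4, 28.9 and 30.5 FPKM. These groups were also separate, with a log2 fold change of 0.16 (SE 0.05, adjusted p = 0.492). Sarm1 had at most 0.0413 FPKM in any sample and was not tested.

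All 16 genes of kinases and ubiquitin enzymes were tested, with log2 fold changes of -0.26 to 0.06. The highest were Ikbkb (38.7 to 42.9 FPKM, log2 fold change -0.03), which encodes a kinase of the NF-kB inhibitor, and Irak1 (31.1 to 34.9 FPKM, log2 fold change 0.01), which acts just below MyD88. Tab3, a subunit of the TAK1 complex, had 5.75, 6.05 and 5.38 FPKM in CD44+/+ and 4.96, 5.26 and 4.84 FPKM in CD44-/- samples. The groups of Tab3 did not overlap (log2 fold change -0.19, adjusted p = 0.678). Ube2n, a ubiquitin-conjugating enzyme, had a log2 fold change of -0.10 (adjusted p = 0.910). Of the 6 transcription factor genes, Nfkb1 had 48.5 to 53.3 FPKM (log2 fold change -0.06) and Irf5 37.6 to 43.1 FPKM (log2 fold change 0.01). Rela, the p65 subunit of NF-kB, had 40.2, 40.0 and 39.4 FPKM and 38.3, 36.6 and 36.4 FPKM, without overlap, and did not pass the test (log2 fold change -0.10, adjusted p = 0.683).

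Of the 7 inhibitor genes, Socs1, a suppressor of cytokine signalling, had the largest log2 fold change of the tested pathway genes, 1.19 (SE 0.40, adjusted p = 0.486). Its values were low and uneven, at 0.877, 0.580 and 0.229 FPKM in CD44+/+ and 1.34, 1.66 and 0.928 FPKM in CD44-/- samples. The groups did not overlap, but the spread within each was wide. With a pseudocount of 1 the Socs1 value was 0.57, and with single samples left out it was 0.76 to 1.54. Nfkbia, the gene of the NF-kB inhibitor that NF-kB itself induces, had 41.5, 65.6 and 69.3 FPKM in CD44+/+ and 49.2, 50.6 and 53.4 FPKM in CD44-/- samples. CD44+/+ replicate 1 was the lowest and the other CD44+/+ samples the highest of all, so that the log2 fold change was -0.17 with all samples (adjusted p = 0.935) and -0.40 without CD44+/+ replicate 1. It was -0.07 without CD44+/+ replicate 2 and -0.03 without CD44+/+ replicate 3. Tollip had 33.1 to 36.4 FPKM and a log2 fold change of -0.04.

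**Figure D4:**
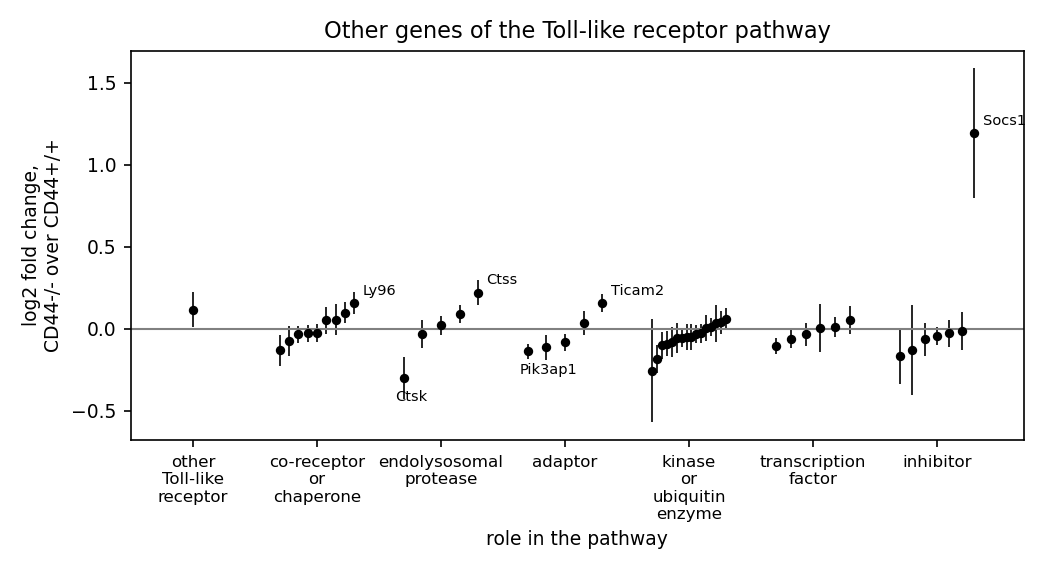
Log2 fold change of CD44-/- over CD44+/+ AMs on the log2(FPKM + 0.1) scale for the 49 tested pathway genes, grouped by role, with SEs as bars. Genes with an unadjusted p under 0.05 are named, and apart from Socs1 (1.19) all points lie between -0.30 and 0.22.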

How the data were processed

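Libraries of AM RNA (NEBNext Ultra II Stranded mRNA, Illumina, paired ends) were aligned by the authors to mm10 with STAR, and the authors deposited Cufflinks FPKM values per gene and sample. The annotation and the treatment of reads that fit several genes are not given in the sources used here. In the deposited table stand also results of the authors' Cuffdiff comparison, a log2 fold change, a test statistic, p-values, q-values and FPKM per genotype, and none of these were used. Rows were read by the gene identifier, since the separate gene name and locus columns are in another order, and positions were taken from GENCODE vM21. Of 24341 genes, 1 with a missing value was left out.

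Genotypes and replicate numbers came from the labels. R 4.3.3 with limma 3.58.1 was used (lmFit, eBayes with an intensity trend, adjusted p under 0.05), and the fit was tested on simulated data. The simulated log2 changes were 1 and 2 in size, so changes as small as those of the tested members were not covered. Log2 fold changes are on the log2(FPKM + 0.1) scale. Each sample is a pool of mice, so p-values measure the spread between pools. By the paper, the pools did not all hold the same number of mice. Same-numbered samples of the genotypes deviated together, with correlations of 0.212, 0.132 and 0.211 across genes, and were treated as pairs in the replicate block; the pairing comes from the data and the shared numbers.

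Members and lists were chosen with earlier results of these data known. Named genes were the 10 members, Cd44, the markers, and in each pathway role the 2 genes with the highest mean FPKM and the 2 with the smallest unadjusted p. For Cd14, Tlr2 and Tlr8 the 2 genes with the highest r outside the set were named, and for each tested member the member most like it. Sarm1, Tlr11 and Tlr12, list genes under the limit for a test, and the joint entry of Hbb-b1 and Hbb-bs were named after their values were seen. Alternatives were the replicate block, the omission of each sample, robust eBayes and eBayes with no trend, scaling by quantiles or by median ratios, pseudocounts of 1 and 0.01, and a limit of 1 FPKM or none.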

Additional observations from a re-analysis of the deposited data

How the results depend on the processing

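Neither Cd14 nor any Toll-like receptor gene passed an adjusted p of 0.05 under any of the 15 alternatives (0 of 120 values for the 8 tested genes), and 119 of the 120 kept their direction. The exception was Cd14, whose log2 fold change ran from -0.18 to 0.0040 with single samples left out. That of Tlr2 ran from -0.35 to -0.16 (adjusted p from 0.166 to 1 over all alternatives), that of Tlr4 from 0.07 to 0.21, that of Tlr13 from -0.27 to -0.10, that of Tlr5 from 0.02 (without CD44+/+ replicate 3) to 0.14 (without CD44+/+ replicate 1), that of Tlr8 from 0.06 (without CD44-/- replicate 2) to 0.16 (without CD44+/+ replicate 1), that of Tlr7 from -0.07 to -0.03 and that of Tlr6 from -0.05 to -0.0016. With the replicate block the adjusted p of Tlr2 was 0.339, of Cd14 0.559 and of Tlr13 0.550, and the block changed no call on these genes or on the pathway list. The count of genes past the threshold, 12 of all tested, was 9 with the replicate block and went from 6 to 36 with single samples left out (36 without CD44+/+ replicate 1, 22 without CD44-/- replicate 1, 7 without CD44+/+ replicate 2 and 6 without CD44-/- replicate 2). That of pathway genes went from 0 to 1, and the cause was not tested. No filter and a mean of at least 1 FPKM left the members' counts at 0. The unknown depth sets no counting interval for Tlr1 and Tlr9.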
